A study of Sus scrofa with 8 samples.

Results

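Swine MHC class I genes (SLA-3, SLA-5, SLA-6, SLA-7 and SLA-8), the light chain gene B2M and the peptide transporter gene TAP1 were measured in the blood of 8 sows. They were chosen by name: every gene with a non-control probe whose RefSeq transcript carries a pig symbol of SLA- and a digit, or the symbol B2M, TAP1, TAP2 or TAPBP. This gave 7 of the 2389 genes named on the array, measured by 19 of its 43603 probes: 7 probes for SLA-3, 4 for SLA-8, 2 each for SLA-5, B2M and TAP1, and 1 each for SLA-6 and SLA-7. SLA-1, SLA-2, TAP2 and TAPBP had 0 probes under this rule and were not analysed here.

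The 4 pregnant and 4 non-pregnant sows (Sus scrofa) were all of parity 5, and whole blood was taken 14 days after insemination. The breed and age of the sows are not given in the sources used here. The study chose half-sib pairs and an unrelated pair, split between the groups, to limit genetic differences between them, but the labels do not tie an array to a pair. Each sow was measured on 1 single-colour Agilent array, so animal and array cannot be told apart, and fewer cells of a type and less RNA per cell cannot be told apart either. The question the design sets is which transcripts differ in blood between pregnant and non-pregnant sows at this stage.

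MHC class I molecules carry short peptides from inside the cell to its surface, where CD8 T cells and NK cells read them. Each consists of a polymorphic heavy chain and the invariant light chain beta-2 microglobulin, the product of B2M. Peptides are cut by the proteasome, pumped into the endoplasmic reticulum by the TAP1 and TAP2 transporter and loaded on the heavy chain with the help of chaperones such as tapasin (TAPBP). In pigs, SLA-1, SLA-2 and SLA-3 are the classical heavy chain genes, and SLA-6, SLA-7 and SLA-8 are non-classical. In the RefSeq gene table SLA-5 lies among the classical genes, and SLA-8, SLA-7 and SLA-6 follow one another elsewhere on the chromosome. The same table lists SLA-1 as another name of both SLA-3 and SLA-5, and SLA-7 as another name of SLA-3. Nearly all nucleated cells carry class I, and interferons raise its transcription.

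The class I genes share long stretches of sequence and differ between animals by allele. The probe sequences were not used here, so which genes or alleles a probe binds was not tested, and signals of SLA probes are uncertain as to the gene. Levels are given as log2 of the processed signal minus the 75th percentile of the array, so that 0 is the 75th percentile. Probes bind with different strength, so the levels of different probes do not compare the amounts of their transcripts. Brightest and dimmer refer to signal alone and served to order and choose probes. Means over a list were compared between arrays only.

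Between arrays, r was 0.870 at the lowest and 0.984 at the highest over the 26480 probes that passed the filter on dim probes. Pregnant replicate 2 stood apart: without it the lowest r was 0.946, its 75th percentile signal was the lowest (142, against 175 to 296 on the others), and 61.7% of probes were well above background there, against 62.7% to 69.2% elsewhere. Non-pregnant replicate 4 was next lowest in both, at 175 and 62.7%. Pregnant replicates 1 and 3 and non-pregnant replicates 1 and 3 lay on slide 1, and the others on slide 2. Of the blood cell markers listed, 8 of 11 T cell, 6 of 9 cytotoxic and NK cell, 5 of 7 monocyte, 7 of 9 neutrophil, 5 of 6 platelet and 2 of 7 B cell genes were measured. The erythroid (0 of 10) and pan-leukocyte (0 of 5) markers had no named probe. All 19 class I and loading probes were well above background on all 8 arrays, so the filter removed none of them.

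No difference between pregnant and non-pregnant sows passed the adjusted test at any of the 19 probes (0 called, limma adjusted p = 0.99997 for each), nor at any other probe (0% of 26480 called, smallest limma adjusted p = 0.524). Without adjustment 1 of the 19 probes, for SLA-5, was below 0.05 in limma and lower in pregnant sows, against 610 of all probes in either direction (2.3%) and 198 in that direction (0.748%). Of the 19 log2 differences, 14 were negative (lower in pregnant sows) and 5 positive, and 56.1% of all probes were negative. The median was -0.13, against -0.040 over all probes. The count rested on 1 sow: without non-pregnant replicate 4, 6 of 19 differences were negative and the median was 0.053. The 95% intervals reached a median of 0.64 to either side on the log2 scale, which is 1.56-fold.

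**Figure D1:**
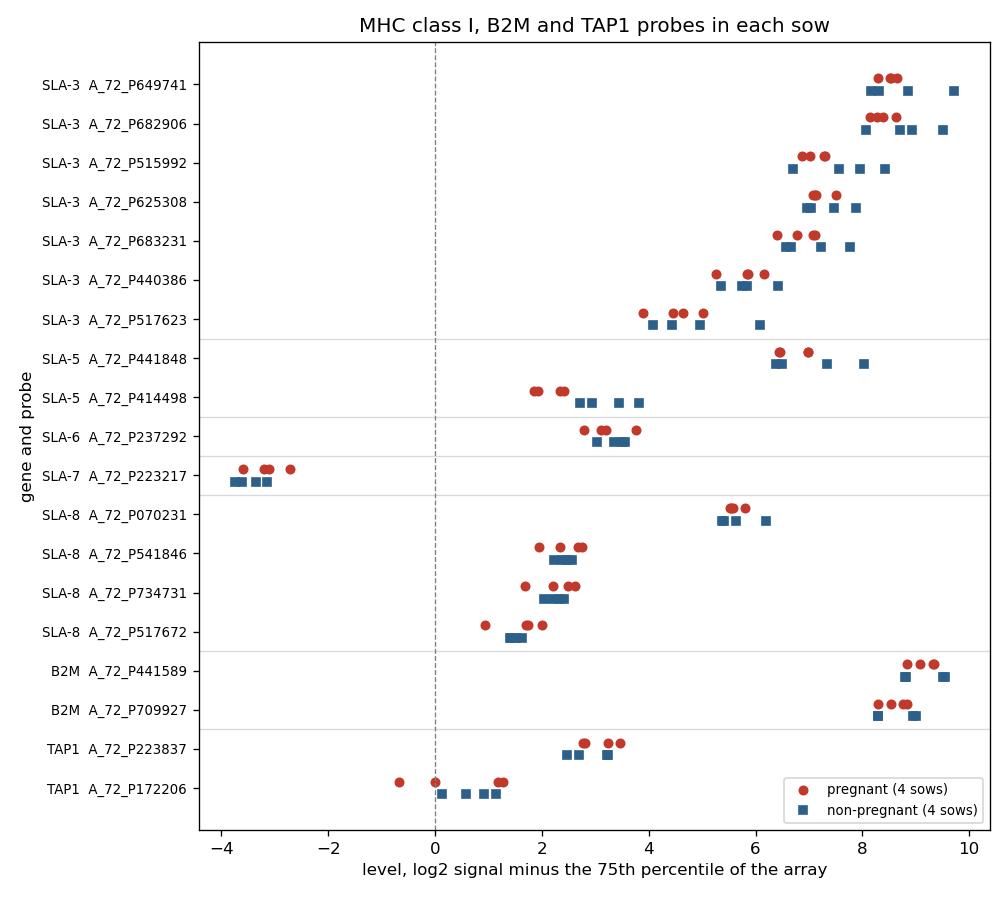
Level of each of the 19 probes in each sow, as log2 signal minus the 75th percentile of the array (horizontal axis), by gene and probe (vertical axis). Circles are the 4 pregnant and squares the 4 non-pregnant sows; the groups separate only at the SLA-5 probe A_72_P414498, where pregnant sows lie between 1.84 and 2.41 and non-pregnant sows between 2.71 and 3.81.

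SLA-3, a classical heavy chain gene, had the most probes. At its brightest probe, A_72_P649741, the levels were 8.64, 8.54, 8.51 and 8.30 in pregnant replicates 1 to 4 and 8.86, 8.16, 8.32 and 9.72 in non-pregnant replicates 1 to 4. The pregnant sows lay close together, within the range of the non-pregnant ones, and non-pregnant replicate 4 stood above the rest. The means were 8.50 ± 0.14 and 8.76 ± 0.70 (SD, n = 4 each), and the log2 difference was -0.27 (SE 0.35, 95% interval -1.04 to 0.50, limma adjusted p = 0.99997). All 7 SLA-3 probes had a negative log2 difference, from -0.55 to -0.062, with unadjusted p between 0.160 and 0.843 in limma. The sign was not the same within slides: on slide 1 it was negative at 4 of the 7 probes and on slide 2 at all 7. Without non-pregnant replicate 4 the sign turned at 5 of the 7 probes, among them the brightest (0.050).

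A_72_P515992 was the SLA-3 probe with the widest gap between groups. It read 7.27, 7.02, 6.86 and 7.30 in the pregnant sows and 8.43, 7.96, 6.70 and 7.57 in the non-pregnant sows. Here non-pregnant replicate 1 was highest, and non-pregnant replicate 3 lay below every pregnant sow, so the groups overlapped. The log2 difference was -0.55 (SE 0.36, 95% interval -1.35 to 0.26, limma adjusted p = 0.99997), and it was -0.58 without non-pregnant replicate 4. Other sows moved it more, as it was -0.29 without non-pregnant replicate 1 and -0.87 without non-pregnant replicate 3.

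SLA-5 had the only probe whose groups did not overlap, and its 2 probes differed in size. At A_72_P414498 the pregnant sows read 1.84, 2.33, 2.41 and 1.92 and the non-pregnant sows 3.44, 2.95, 2.71 and 3.81. Every pregnant sow lay below every non-pregnant sow, which was so at 0.65% of all probes. The means were 2.13 ± 0.28 and 3.23 ± 0.50 (SD, n = 4 each), so that the level in pregnant sows was 0.466 times that in non-pregnant sows (95% interval 0.292 to 0.745). The log2 difference of -1.10 (SE 0.30) had an unadjusted p of 0.00465 and did not pass adjustment over all probes (limma adjusted p = 0.99997). The interval holds for a probe fixed in advance and takes no account of this being the most different of 19.

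The difference at A_72_P414498 was -0.95 within slide 1 and -1.25 within slide 2. With 1 array left out at a time it ran from -1.27 to -0.90, the latter without non-pregnant replicate 4. At the brighter SLA-5 probe, A_72_P441848, the pregnant sows read 6.99, 6.45, 6.45 and 6.98 and the non-pregnant sows 7.34, 6.39, 6.49 and 8.02. The groups overlapped there, with non-pregnant replicate 4 again on top, and the log2 difference was -0.35 (SE 0.38, limma adjusted p = 0.99997), or -0.025 without that sow. Over the 8 arrays this brighter probe followed the SLA-3 probes (median Pearson r of 0.894 with the 7 of them) more closely than it followed the other SLA-5 probe (r = 0.576).

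SLA-6, SLA-7 and SLA-8 are the non-classical heavy chain genes. SLA-6 read 3.11, 2.78, 3.21 and 3.77 in pregnant and 3.34, 3.56, 3.02 and 3.51 in non-pregnant sows, and the pregnant group held both the lowest and the highest value. Its log2 difference was -0.14 (SE 0.28, limma adjusted p = 0.99997). SLA-7 was dim, with processed signals of 17.2 to 25.7. It read -3.60, -2.71, -3.20 and -3.12 in pregnant and -3.75, -3.62, -3.36 and -3.14 in non-pregnant sows. Its positive log2 difference of 0.31 (95% interval -0.29 to 0.92, limma adjusted p = 0.99997) was the largest positive one of the 19, and its highest value came from pregnant replicate 2. Without that sow the log2 difference was 0.16. It turned to -0.76 with normexp background correction, and was 0.048 with the background capped first, a choice made after seeing the data.

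SLA-8 had 4 probes, and they fell into a set of 3 and a probe apart. The brightest, A_72_P070231, read 5.81, 5.53, 5.54 and 5.57 in pregnant and 5.64, 5.37, 5.41 and 6.20 in non-pregnant sows. It was highest in non-pregnant replicate 4, as most SLA-3 probes were, and its log2 difference was -0.043 (SE 0.26, limma adjusted p = 0.99997). The next, A_72_P541846, read 2.69, 1.95, 2.34 and 2.75 in pregnant and 2.22, 2.48, 2.38 and 2.57 in non-pregnant sows. It was lowest in pregnant replicate 2 and highest in pregnant replicate 4, and its log2 difference was 0.019. A_72_P734731 and A_72_P517672 were lowest in pregnant replicate 2 too, with log2 differences of 0.0075 and 0.11. All 4 SLA-8 differences were positive on slide 1 (0.15 to 0.47) and negative on slide 2 (-0.26 to -0.17).

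Pearson's r between the 3 dimmer SLA-8 probes ran from 0.855 to 0.994 over the 8 arrays, and between each of them and A_72_P070231 from 0.303 to 0.343. All 3 were lowest in pregnant replicate 2. Without that sow, r between them ran from 0.654 to 0.993 (median 0.660), and with A_72_P070231 from 0.292 to 0.358. A_72_P070231 instead had a median r of 0.818 with the 7 SLA-3 probes, from 0.165 at A_72_P515992 to 0.935. Its r with the SLA-5 probe A_72_P441848 was 0.903, while the 3 dimmer probes had a median r of 0.307 with SLA-3. Leaving out non-pregnant replicate 4, the median r of A_72_P070231 was 0.669 with SLA-3 and 0.268 with the 3 other SLA-8 probes. These correlations describe 8 arrays that all probes share. All 4 probes are assigned to 1 transcript, and which loci each binds was not tested.

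Within SLA-3 the median r over 21 pairs of probes was 0.692. A_72_P515992 stood apart (median r of 0.309 with the other 6), and the 15 pairs of the other 6 had a median r of 0.820. Without non-pregnant replicate 4 the median over the 21 pairs was 0.411, and the lowest r was -0.43.

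**Figure D2:**
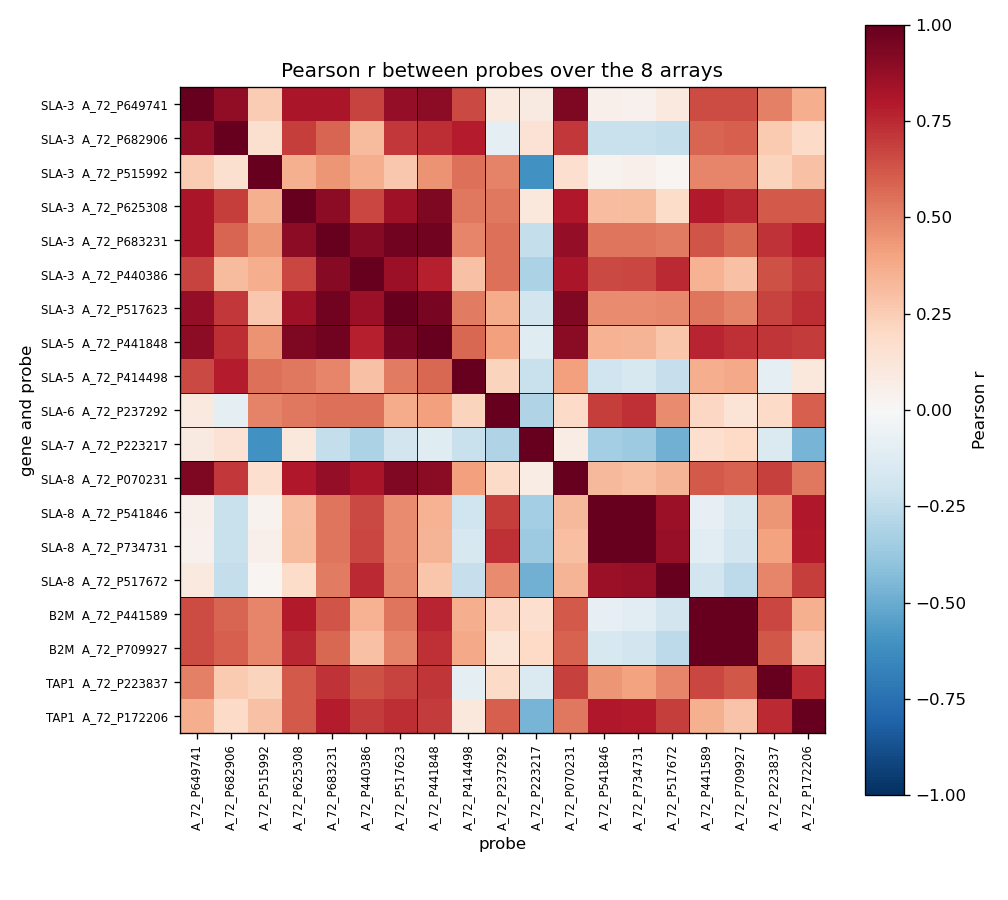
Pearson r between each pair of the 19 probes over the 8 arrays (colour, from -1 to 1), with probes in the same order on both axes and lines between genes. The SLA-8 probe A_72_P070231 is dark with most SLA-3 probes (median r of 0.818, from 0.165 at A_72_P515992 to 0.935). It is pale with the other SLA-8 probes (0.303 to 0.343), and the 2 B2M probes are nearly identical (r = 0.996).

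B2M is the light chain gene. Its brightest probe, A_72_P441589, read 9.08, 9.32, 8.84 and 9.34 in pregnant and 9.56, 8.82, 8.80 and 9.51 in non-pregnant sows. The non-pregnant sows formed a high pair (replicates 1 and 4) and a low pair (replicates 2 and 3), with the pregnant sows between or beside them. The means were 9.15 ± 0.23 and 9.17 ± 0.42 (SD, n = 4 each), and the log2 difference was -0.023 (SE 0.28). Its 95% interval, -0.64 to 0.59, corresponds to a level in pregnant sows of 0.641 to 1.51 times that in non-pregnant sows (limma adjusted p = 0.99997). The second probe, A_72_P709927, gave -0.035 and followed the first at r = 0.996. Both were lower in pregnant sows on slide 1 (-0.22 and -0.24) and higher on slide 2 (0.17 at both).

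TAP1, a chain of the peptide transporter, had 2 probes whose differences had opposite signs. A_72_P223837 read 3.47, 2.81, 2.77 and 3.25 in pregnant and 3.24, 2.47, 2.70 and 3.22 in non-pregnant sows, and its log2 difference was 0.17 (SE 0.29, limma adjusted p = 0.99997). It was near 0 with either of 2 sows left out (0.023 leaving out non-pregnant replicate 2, 0.036 leaving out pregnant replicate 1). The dimmer A_72_P172206 read 1.17, -0.68, 0.0021 and 1.28 in pregnant and 0.91, 0.13, 0.58 and 1.15 in non-pregnant sows, and its log2 difference was -0.25 (SE 0.46, limma adjusted p = 0.99997). Pregnant replicate 2 was the lowest array at the dimmer probe only, and without that sow its log2 difference was 0.12. The 2 probes had an r of 0.746 over the 8 arrays, or 0.879 without pregnant replicate 2.

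**Figure D3:**
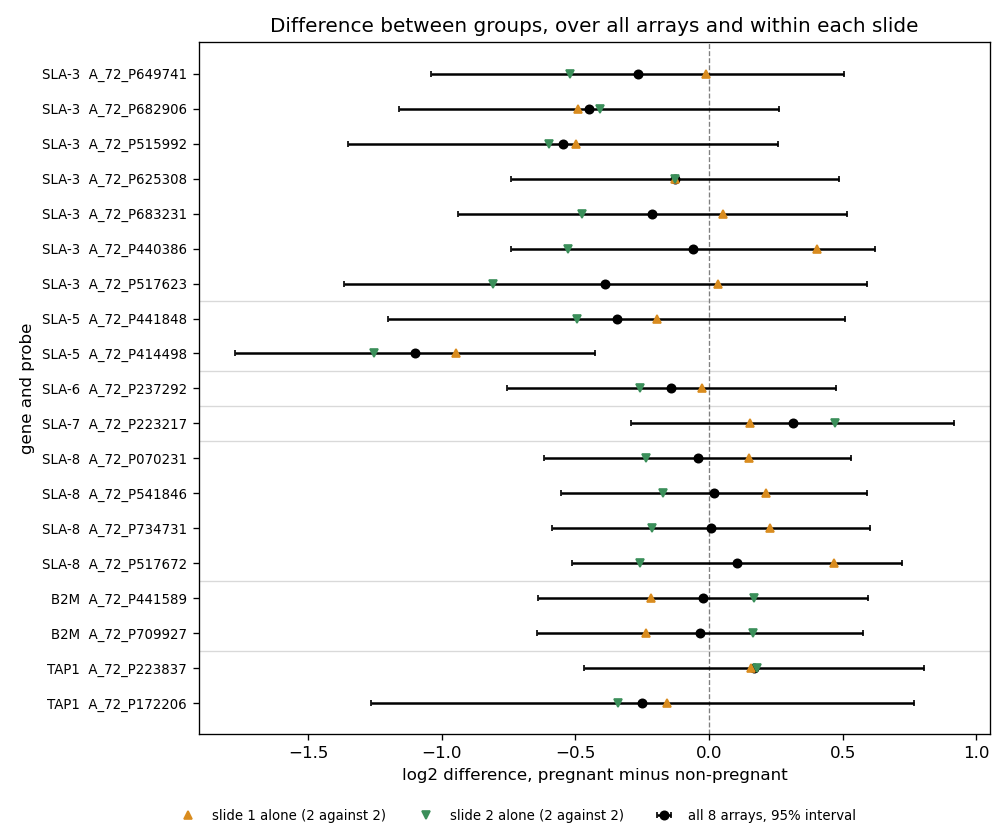
Log2 difference, pregnant minus non-pregnant, of each probe (horizontal axis) over all 8 arrays with its 95% interval (circles and bars, limma) and within each slide of 2 against 2 arrays (triangles). Only the interval of the SLA-5 probe A_72_P414498 (-1.77 to -0.43) leaves out 0, and the slides differ in sign at 9 of the 19 probes.

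Non-pregnant replicate 4 had the highest value at 9 of the 19 probes and lay above the probe's mean at all 19. Among the 9 SLA-3 and SLA-5 probes it was highest at 8, with a median deviation of 0.93 from the probe's mean, against -0.37 to 0.27 on the other 7 arrays. Over all probes kept, its median deviation was 0.023. Pregnant replicate 2 was lowest at 8 of the 19 probes, with a median deviation of -0.37, and its median over all probes was -0.27. Of the marker lists, none had its highest mean in non-pregnant replicate 4. In that sow the T cell list stood at 2.00, where the other sows together ran from 1.22 to 2.05. Its neutrophil list stood at 2.19, the highest of the non-pregnant sows, where the highest array had 2.61. Single markers went both ways. Non-pregnant replicate 4 was the highest array at CD3D, CD3E, CD4 and LCK, at GZMB, and at S100A12 and MMP9. CD3G, CD8A, CD2 and SH2D1A were highest in non-pregnant replicate 1, and the other cytotoxic and neutrophil markers in other sows. Neither the part of cell composition nor that of the array itself in the high class I signal of non-pregnant replicate 4 was tested.

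**Figure D4:**
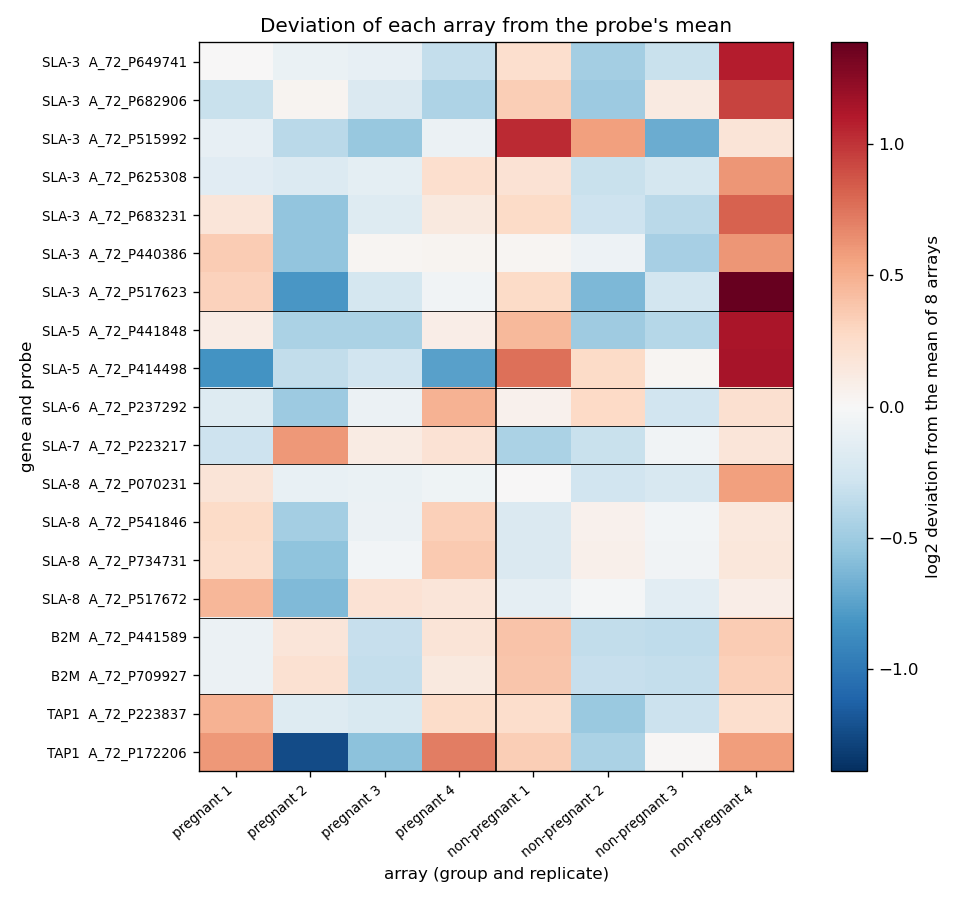
Deviation of each array (horizontal axis, group and replicate) from the mean of the 8 arrays at each probe (vertical axis), in log2 units (colour). Non-pregnant replicate 4 is above the mean at all 19 probes and highest at 8 of the 9 SLA-3 and SLA-5 probes, while pregnant replicate 2 is lowest at 8 of the 19.

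The spread between arrays differed among the genes. The SD over the 8 arrays had a median of 0.49 at the 9 SLA-3 and SLA-5 probes and of 0.32 at the other 10 members. Over all probes kept it was 0.45, over the 10735 probes with a mean above the 75th percentile 0.38, and over 31 MHC class II probes 0.44. It was above the median of all probes at 6 of the 9 SLA-3 and SLA-5 probes and at 1 of the other 10, the dimmer TAP1 probe. That made 7 of the 19 members (36.8%), near the 35.5% among the 10735 probes with a mean above the 75th percentile. These differences in spread were not tested. Non-pregnant replicate 4 was highest at 8 of the 9 SLA-3 and SLA-5 probes, with a median deviation of 0.93, so their SD depends on that sow. The spread without that sow is not given here. The highest sow exceeded the lowest 4.57-fold at the SLA-3 probe A_72_P517623 (non-pregnant replicate 4 over pregnant replicate 2). At the SLA-5 probe A_72_P414498 the ratio was 3.92-fold (non-pregnant replicate 4 over pregnant replicate 1). At the brightest B2M probe it was 1.68-fold and at A_72_P541846 of SLA-8 1.74-fold. Pregnant replicate 2 was low over all probes too, with a median deviation of -0.27.

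Genes whose pattern was most like that of SLA-3 were sought among the 1810 other genes measured, each at its brightest probe, by Pearson's r over the 8 arrays. For the brightest SLA-3 probe these were NOTCH4, a Notch receptor (r = 0.957), LRP10 of the LDL receptor family (0.952), HPS6, which serves lysosome-related organelles (0.920), GNA11, a G protein subunit (0.913), and the transcription factor KLF2 (0.906). The median r over all 1810 genes was 0.157, and that of B2M with SLA-3 was 0.654. For B2M they were TMBIM6, a membrane protein of the endoplasmic reticulum (0.960), the immunoproteasome subunit PSMB9 (0.945), the transcription factor ASCL2 (0.933), TMSB10, which binds actin (0.933), and the Fc receptor FCGR3A (0.930). The 2 lists of 5 share no gene. They are the top of a ranking over 8 arrays, and r over so few arrays is high for some genes in any such ranking. The brightest SLA-3 probe deviated from its mean by 1.09 in non-pregnant replicate 4 and by -0.47 to 0.23 elsewhere, so that sow weighs heavily in r. Its Spearman correlations were 0.857 with NOTCH4, 0.881 with LRP10, 0.833 with HPS6, 0.643 with GNA11 and 0.690 with KLF2. In the B2M list they ran from 0.881 to 0.976.

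The other genes of the class I pathway were described from 6 lists, and 0 genes of any list were called. The counts by sign stand beside 56.1% of all probes with a negative log2 difference. Of 19 genes of peptide generation, 10 were measured, with 3 positive and 7 negative log2 differences (median -0.084). PSMB10, a catalytic subunit of the immunoproteasome, read 5.52, 5.18, 4.91 and 5.28 in pregnant and 5.84, 4.86, 4.78 and 5.99 in non-pregnant sows. Like B2M it was highest in non-pregnant replicates 1 and 4, and its log2 difference was -0.14. PSMB6, a subunit of the constitutive proteasome, stood at -0.16, the peptidase LNPEP at -0.15 and the peptidase THOP1 at 0.22, where pregnant replicate 2 read 5.92 and the other arrays 4.14 or less.

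Among folding and loading chaperones 3 of 12 were measured: HSP90B1 had a log2 difference of 0.33, calreticulin (CALR), a member of the loading complex, 0.17, and the glucosidase chain GANAB -0.063. Of 17 transcription factors that act on class I or interferon response promoters, 6 were measured, 4 positive and 2 negative (median 0.057). RELA, the p65 subunit of NF-kappaB, stood at 0.51 at a probe highest in pregnant replicate 2 and at -0.098 at its other probe. USF1, which binds E-box elements, stood at -0.36, with other probes from -0.16 to 0.84, and NFYB, a subunit of the CCAAT-binding factor NF-Y, at -0.18.

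Of 14 class I-like genes, 5 were measured, 3 positive and 2 negative. FCGRT, the heavy chain of the neonatal Fc receptor, which pairs with B2M, had a log2 difference of -0.11. The lipid-presenting CD1D stood at -0.14, with other probes from -0.088 to 0.27. CD1E stood at 0.48 at a probe that read -0.65 in pregnant replicate 2 and -3.45 to -2.80 in the other pregnant sows. The NKG2D ligand ULBP1 stood at 0.38. CD1E and ULBP1 were dim, with means of -2.44 and -2.93 in pregnant and -2.92 and -3.31 in non-pregnant sows. Of 15 genes for receptors that bind class I and their signalling chains, 5 were measured, and all 5 were negative (median -0.29). CD8A, the co-receptor that binds class I on cytotoxic T cells, was the most different: pregnant sows read 2.77, 2.47, 2.42 and 2.20 and non-pregnant sows 3.15, 2.97, 2.97 and 3.01, without overlap. Its log2 difference was -0.56 (SE 0.23, unadjusted p = 0.0331, limma adjusted p = 0.99997). All pregnant sows lay below all non-pregnant sows at 0.65% of all probes. Of all probes, 0.748% were lower in pregnant sows with an unadjusted p under 0.05 in limma. CD8A was named for having the smallest unadjusted p of its list. CD3E, a chain of the T cell receptor complex, stood at -0.22, and KLRK1 and KIR2DL1, receptors of NK cells, at -0.29 and -0.40. At KIR2DL1 the pregnant sows ran from 0.60 to 3.75 and held both the lowest and the highest value. Of the T cell markers 8 of 8 had negative differences (median -0.42, 0 called), with CD8A and CD3E among them, and list means of 1.22 to 1.79 in pregnant and 1.73 to 2.05 in non-pregnant sows, and the part of T cell number in the SLA-5 and CD8A values was not tested. Of the other marker lists, 6 of 6 cytotoxic and NK cell genes (median -0.43), KLRK1 among them, and 2 of 2 B cell genes (median -0.28) had negative differences. In the monocyte list 5 of 5 genes had positive ones (median 0.47). Over all probes 56.1% of differences were negative. None of the genes on these lists was called (0), and their part was not tested either.

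MHC class II genes, which present peptides from outside the cell, had 8 negative and 1 positive log2 difference in 9 genes measured (median -0.15, 0 called). Their mean level was highest in non-pregnant replicate 1 and lowest in pregnant replicate 2. In non-pregnant replicate 4 this mean of the list was 4.95, below the 5.20 of the highest array. Single class II genes went both ways among the 4 of smallest unadjusted p in limma. SLA-DMA was highest in non-pregnant replicate 4 (6.71), as 8 of the 9 SLA-3 and SLA-5 probes were. SLA-DQB1, SLA-DQA1 and SLA-DRA were highest in non-pregnant replicate 1 (7.07, 7.42 and 7.70).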

How the data were processed

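Whole-blood RNA of 8 sows was labelled with Cy3 and hybridised to 1 Agilent porcine array each. The authors deposited scanner output in which the processed signal is a spot intensity, background-subtracted and spatially detrended within the array by Agilent Feature Extraction, whose version the file headers give as 10.7.3.1 and the submitters' processing notes as 10.7. The authors also deposited a log2 table, used only as an alternative. Its direction is that of the signal (r of at least 0.99895 with each array's own log2 signal), every column had a median of 5.03, and its scaling is unknown here.

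Outlier spots were left out, spots of 1 probe were averaged, and log2 signals were taken relative to the array's 75th percentile. Of 43603 probes, 215 were dropped because all their spots were outliers on some array, and 26480 (60.7%) were well above background on all 4 arrays of a group. No spot was saturated (0). Precision is limited by having 4 arrays per group. The test of pregnant against non-pregnant sows used lmFit and eBayes of limma 3.58.1 in R 4.3.3 and was two-sided; p-values were adjusted by Benjamini-Hochberg over all probes kept, with a threshold of 0.05, and the script was tested on simulated data. Python 3.11.15, pandas 2.3.3 and matplotlib 3.10.9 served for tables and plots. Of 5779 probes with a RefSeq transcript, 5461 were matched to 2389 symbols of RefSeq's gene table for Sscrofa11.1, from which only names and gene order were taken. Genes of lists stand at their brightest kept probe.

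Members and lists were chosen with earlier results of these data known. Named were every member probe, up to 4 genes of smallest unadjusted p per pathway list, and the 5 genes most like SLA-3 and B2M. Of these, 1 gene is not reported here. No label says which sows are pairs, so no pairing was used. Deviations from the group means correlated at 0.218, 0.481, 0.434 and -0.118 between same-numbered sows, for replicates 1 to 4. They correlated at 0.398 between pregnant replicate 1 and non-pregnant replicate 4, and at 0.386 between pregnant replicate 4 and non-pregnant replicate 1. Whether such values mark the half-sib pairs was not tested.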

Additional observations from a re-analysis of the deposited data

Results flagged for a closer look

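In the 38 groups of 4 arrays (19 probes, 2 groups each), 2 had a sample far from the other 3 by Dixon's test, and chance gives about 1 in 20. At the SLA-3 probe A_72_P625308, pregnant replicate 4 read 7.51, while the other 3 pregnant sows lay between 7.08 and 7.13. At the SLA-8 probe A_72_P070231, pregnant replicate 1 read 5.81, and the other 3 lay between 5.53 and 5.57. Both sows lay within the range of the non-pregnant group at the same probe.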

How the results depend on the processing

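Over 22 alternatives, 0 probes were called in each, over all probes and among the class I and loading probes. The smallest limma adjusted p over all probes ran from 0.154 (array weights) to 0.999995. Counts of probes with an unadjusted p under 0.05 in limma do not share a total. They ran from 44 of 1817 (1 probe per gene) to 2038 of 26480 (array weights, whose estimation stopped before it converged). The SLA-5 probe A_72_P414498 was negative in all 21 alternatives that include it, between -1.27 and -0.87 except with normexp background correction (-0.23); its limma adjusted p ran from 0.433 to 1. With the replicate number as a block its log2 difference was -1.10 (limma unadjusted p = 0.0146), 0 probes were called, and not every sow correlated best with its own number. Of 406 values of single probes under the alternatives, 53 had the opposite sign.

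Up to 19 spots on an array (non-pregnant replicate 4) had a local background over 100 units above their signal. The part of these few spots in the outcome was not tested. Normexp with local background had a fitted mean that ran from -2.81 to -811 over the arrays. It gave a median of 0.61 and 2 negative differences, with 0.61, 0.45, 0.31, 0.77, 0.64, 0.81 and 0.47 for SLA-3 A_72_P649741, A_72_P682906, A_72_P515992, A_72_P625308, A_72_P683231, A_72_P440386 and A_72_P517623, 0.55 for SLA-5 A_72_P441848, 0.63 for SLA-6, -0.76 for SLA-7, 0.82 for SLA-8 A_72_P070231, 0.85 and 0.84 for B2M and 0.089 for TAP1 A_72_P172206; all probes shifted by a median of -0.20. With that background capped, a choice made after seeing the data, 15 were negative, the median was -0.091, and A_72_P734731 turned to -0.021.

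Signs also turned with median scaling (SLA-8 A_72_P541846 -0.0035 and A_72_P734731 -0.015), with array weights (-0.034 and -0.011 at the same probes, 0.017 for SLA-3 A_72_P440386) and in the deposited log2 table (0.0075 for B2M A_72_P441589). On slide 1 alone SLA-3 A_72_P440386, A_72_P683231 and A_72_P517623 stood at 0.40, 0.051 and 0.034 and SLA-8 A_72_P070231 at 0.15. On slide 2 alone SLA-8 A_72_P541846, A_72_P734731 and A_72_P517672 stood at -0.17, -0.21 and -0.26 and B2M at 0.17 and 0.17. The cause was not tested.

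With an array left out, negative differences numbered 6 (without non-pregnant replicate 4) to 17. Probes whose sign turned ran, for SLA-3, from -0.22 to 0.13 (A_72_P440386), -0.66 to 0.0096 (A_72_P517623), -0.25 to 0.053 (A_72_P625308), -0.47 to 0.050 (A_72_P649741) and -0.37 to 0.027 (A_72_P683231); for SLA-6 from -0.33 to 0.0023; for SLA-8 from -0.14 to 0.14 (A_72_P070231), -0.030 to 0.33 (A_72_P517672), -0.086 to 0.18 (A_72_P541846) and -0.11 to 0.19 (A_72_P734731); for B2M from -0.15 to 0.10 (A_72_P441589) and -0.15 to 0.088 (A_72_P709927); and for TAP1 A_72_P172206 from -0.53 to 0.12.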
